A study of Arabidopsis thaliana with 9 samples.

Results

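Stunted msh1 RNAi plants of Arabidopsis thaliana were compared with wild type on Affymetrix ATH1 arrays, and the comparison used 6 of the 9 arrays of the series as its groups. The stunted group held 3 arrays from transgenic plants in which RNA interference against MSH1 had been introduced and which grew stunted. A further 3 arrays came from msh1 RNAi plants with a variegated phenotype, and they entered the model and the tests that set stunted plants against variegated ones. The wild-type group held 3 arrays from untransformed plants. All plants were of the Col-0 accession, 8 weeks old and grown in a greenhouse, and RNA came from their above-ground parts. The arrays were chosen by their titles, and the labels call those of a group biological replicates. The labels name neither the promoter of the RNAi construct nor the number of transgenic lines. MSH1 itself was not analysed here, and the group labels were therefore not checked against the gene that was silenced.

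MSH1 is encoded in the nucleus and belongs to the MutS family of DNA mismatch repair proteins. It acts in mitochondria and plastids, where it keeps repeated sequences of the organelle genomes from recombining, and its loss is known to give variegated leaves and altered growth. Leaf growth itself depends on cell division, on the microtubules that guide cellulose deposition, and on enzymes that loosen the wall. Plastids signal their state to the nucleus, which encodes most plastid proteins.

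Of 22746 probe sets, 2197 (9.66%) passed the test in stunted plants against wild type, at an adjusted p under 0.05 in limma. Of these, 1116 (4.91%) rose and 1081 (4.75%) fell. Reduced to 1 probe set for each gene with an unambiguous name, 515 of 13356 genes rose (3.86%) and 561 fell (4.2%), together 8.06%, and the median change of all genes was 0.00 on the log2 scale. The share that passed depended on the level: it was 2.3% among the 8780 genes with a mean log2 level under 4, 17.8% among 3507 genes from 4 to 7, and 23.4% among 1069 genes above 7. Within the stunted group the arrays correlated at 0.9855 to 0.9928 across probe sets, within wild type at 0.9899 to 0.9943, and between the groups at 0.9738 to 0.9843. The actin 3′ minus 5′ signal, a measure of RNA degradation, was 1.65 ± 0.27 in stunted plants and 1.26 ± 0.26 in wild type (log2, SD, n = 3 each, exact two-sided permutation p = 0.2, where 0.1 is the smallest possible). The 25S ribosomal RNA signal was 4.50, 8.99 and 8.58 in stunted plants 1 to 3, against 4.25, 4.19 and 6.44 in wild type. These values overlapped between the groups, and their part in the results was not tested beyond the fits that carry them as covariates. In RNA from whole shoots, fewer cells of a type and less RNA per cell cannot be told apart.

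The tissue label was set against the few defining markers that the annotation names. RCA, the rubisco activase of green leaves, had log2 levels of 12.88, 13.02 and 12.94 in stunted plants, against 12.52, 12.73 and 12.85 in wild type, near the top of the scale. The root hair expansin EXPA7, the meristem peptide CLV3 and the anther gene AT5G07230 lay between 2.60 and 3.03 in all 6 arrays, which is below the array medians of 3.37 to 3.43. PYK10, a beta-glucosidase known from roots and from endoplasmic reticulum bodies of seedlings, was the exception and is described with the defence genes.

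Growth, wall, stress and plastid genes were gathered into 54 lists, which together held 666 measured genes. The lists and their members were chosen with earlier results of these data known. Their shares beside those of all genes are therefore a description and no test of enrichment. Of the 666 genes, 41 rose and 62 fell, 15.5% against the 8.06% of all genes. The growth lists held 80 genes, of which 0 rose and 9 fell, together 11.2%. The wall and cytoskeleton lists held 160 genes, of which 3 rose and 25 fell, together 17.5%. In the stress and defence lists 17 of 285 genes rose and 25 fell, together 14.7%. In the plastid lists 21 of 142 rose and 3 fell, together 16.9%. Wall genes that passed were therefore mostly lower in stunted plants and plastid genes that passed mostly higher, while stress genes went both ways. With the actin covariate the plastid balance was nearly even, at 7 rises and 6 falls. The genes with a symbol in the reference table are brighter than the rest, and 12.8% of all 1557 of them passed, so the lists' shares are to be read against that value too. The share of the growth lists lay below it, and that of the stress lists was near it. The plastid lists are bright, with a median log2 level of 7.82. Their share of 16.9% lay below the 23.4% of all genes with a mean level above 7.

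**Figure D1:**
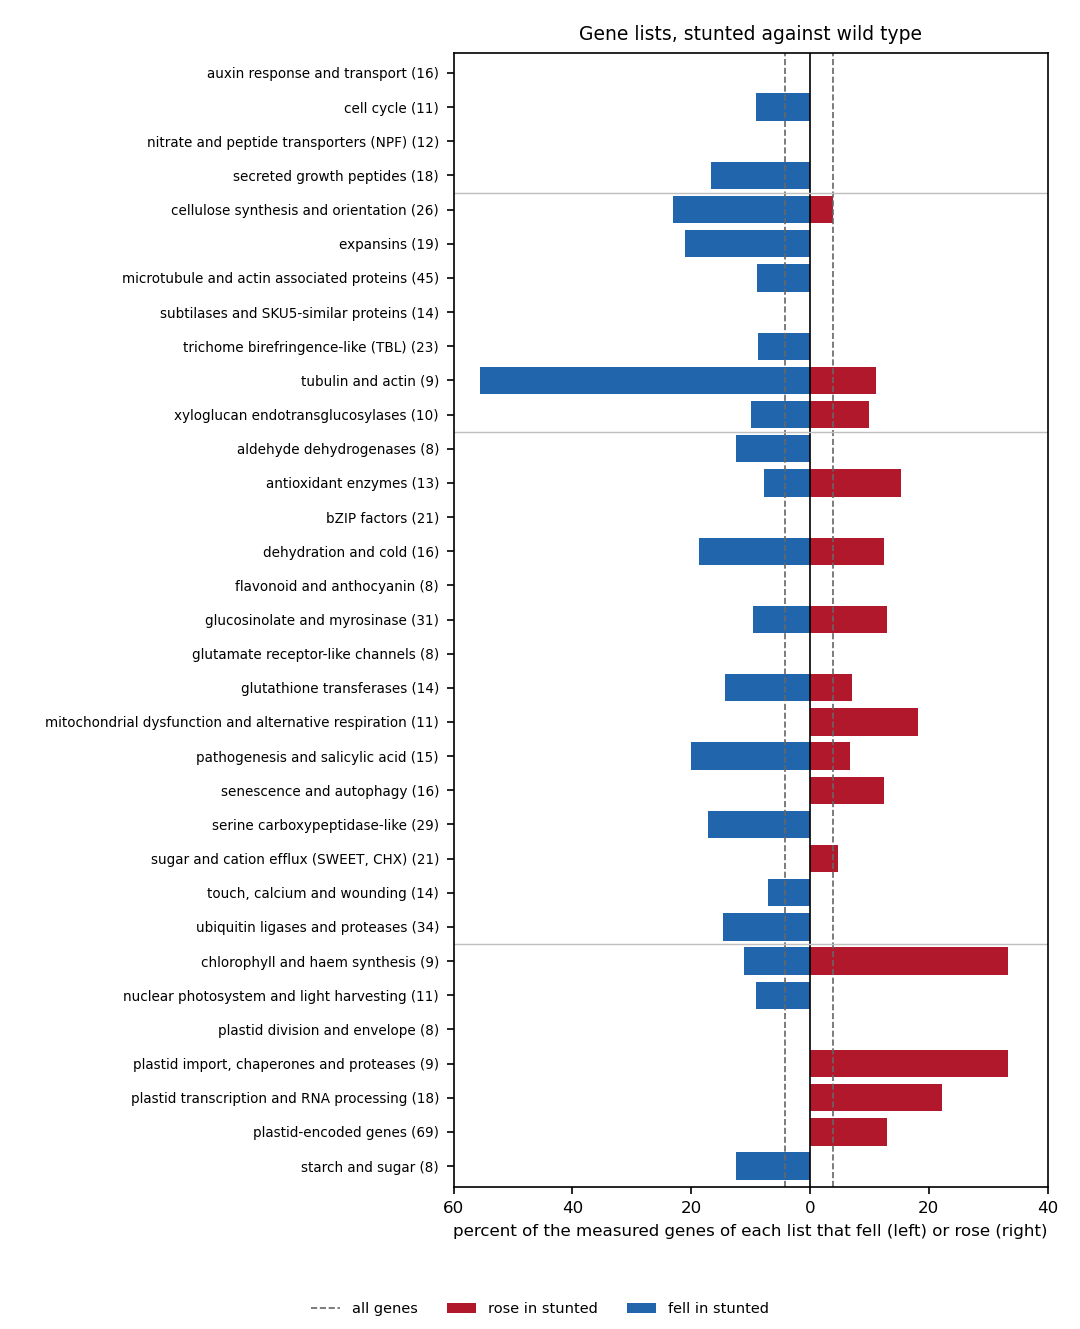
Share of the measured genes of each list that fell (blue bars, left) or rose (red bars, right) in stunted plants against wild type, in percent, with the number of measured genes in brackets and lists of at least 8 genes shown. The dashed lines give the shares among all genes, 3.86% for rises and 4.2% for falls; the tubulin and actin list reaches furthest to the left and the chlorophyll and haem list, level with the plastid import and chaperone list, furthest to the right.

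Growth genes with a call were all lower in stunted plants, but most of the growth genes that could be measured did not pass. TCP15, a class I TCP transcription factor that acts on cell proliferation in leaves, had log2 levels of 4.12, 3.75 and 3.47 in stunted plants, against 5.37, 4.86 and 4.68 in wild type. Every stunted array lay below every wild-type array, and the level was 2.29-fold lower (log2 -1.19, SE 0.21, adjusted p = 0.00783). SIM, or SIAMESE, an inhibitor of cyclin-dependent kinases that switches cells from division to endoreduplication, had levels of 3.76, 3.38 and 3.57 in stunted plants, against 4.51, 4.14 and 4.56 in wild type (log2 -0.83, SE 0.13, adjusted p = 0.00567). SIM was the single called member of the 11 cell cycle genes. All 11 of these, among them the Aurora kinases AUR1 to AUR3 and the replication licensing gene PRL, had changes below 0, from -0.83 to -0.01, with a median of -0.14. In variegated plants SIM stood at 3.77, 3.55 and 3.58, which did not differ from stunted plants by the test (log2 -0.06, adjusted p = 0.892).

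Among 18 genes for secreted growth peptides 3 fell and 0 rose. This was 16.7%, against 8.06% of all genes and 12.8% of genes with a symbol. CLE41, whose peptide keeps cambial cells dividing and holds back xylem formation, had log2 levels of 5.52, 5.13 and 5.14 in stunted plants, against 6.42, 6.31 and 6.14 in wild type (log2 -1.03, SE 0.13, adjusted p = 0.0018). Variegated plants stood at 6.24, 6.28 and 6.03, close to wild type, and the stunted level was lower than theirs by the test (log2 -0.92, adjusted p = 0.0134). RALFL34, a RALF-like peptide of the family that alkalinises the wall and restrains cell expansion or founder cell division, had levels of 8.58, 8.36 and 8.37 in stunted plants, against 9.20, 9.23 and 9.22 in wild type (log2 -0.78, SE 0.07, adjusted p = 0.000598). The wild-type arrays differed by at most a few hundredths, and the stunted arrays all lay well below them. RALFL31 fell by 0.65 (adjusted p = 0.00507), and the other 9 of the 11 RALF-like genes did not pass. The stomatal density peptide STOMAGEN was among the 15 peptide genes without a call.

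Hormone genes gave few calls. None of 16 auxin genes (GH3, IAA and YUC members, median 0.05), of 5 gibberellin receptor and F-box genes (median -0.09) or of 12 nitrate and peptide transporters passed. EIN3, the transcription factor at the centre of the ethylene response, had log2 levels of 7.61, 7.56 and 7.40 in stunted plants, against 8.03, 8.02 and 7.90 in wild type (log2 -0.46, SE 0.08, adjusted p = 0.00866). RTE1, which stabilises signalling by the ethylene receptor ETR1, fell by 0.48 (adjusted p = 0.0151). Both measured members of the ethylene list were thus lower, in a list too short to describe the pathway. The cytokinin response regulators ARR15 and RR16, type-A members that feed back on cytokinin signalling, had changes of -0.55 and -0.62 (adjusted p = 0.035 and 0.046), and the other 4 regulators measured did not pass. The call of RR16 was lost when any of the 9 arrays was left out (adjusted p up to 0.116), and that of ARR15 without wild type 1, 2 or 3, variegated 3, stunted 2 or stunted 3 (up to 0.119). The call of RTE1 was lost without wild type 1 or 2 or stunted 2 or 3 (up to 0.0603), and with the actin covariate EIN3 had an adjusted p of 0.0542.

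Of 7 tubulin genes measured, 5 beta-tubulins fell and 1 alpha-tubulin rose, with a median change of -0.76. TUB1 had log2 levels of 2.93, 2.92 and 3.13 in stunted plants, against 4.59, 3.78 and 4.54 in wild type, a 2.47-fold lower level (log2 -1.31, SE 0.20, adjusted p = 0.00414). These stunted levels lay below the array medians of 3.37 to 3.43, so the fold is a rough value. TUB6, the brightest of those that fell, had levels of 7.48, 7.44 and 7.62 in stunted plants, against 8.13, 8.18 and 8.40 in wild type (log2 -0.72, SE 0.09, adjusted p = 0.00161). TUB7 fell by 0.80 (adjusted p = 0.00335), TUB9 by 0.76 (adjusted p = 0.00646) and TUB5 by 0.80 (adjusted p = 0.0275). For each of the 5 the arrays of stunted plants and wild type did not overlap, where 20.8% of all genes show no overlap. The 5 were picked out because they passed the test on these same arrays, so the lack of overlap is no further support. Variegated plants lay between the other groups for TUB1, TUB6, TUB7 and TUB9 by their means, and none of these 4 differed between stunted and variegated plants by the test (adjusted p from 0.0598 to 0.218). TUA1, an alpha-tubulin known mainly from pollen, moved the other way (log2 0.57, adjusted p = 0.0478), and TUA6 did not pass. The call of TUB5 was lost without wild type 2 or 3 or stunted 2 (adjusted p up to 0.091), and that of TUA1 without wild type 1 or 2, variegated 1 or 2, or stunted 2 or 3 (up to 0.16). Tubulin genes are close in sequence, so a probe set of a 3′ array can take up signal from another member.

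Among 45 genes for proteins that bind microtubules or actin, 4 fell and 0 rose. This was 8.89%, against 8.06% of all genes and 12.8% of genes with a symbol, so the list as a whole was near the background and its members are described singly. Of these 4, 3 encode LIM-domain proteins, which bundle actin filaments. WLIM2a had log2 levels of 5.94, 5.81 and 5.78 in stunted plants, against 7.04, 7.16 and 7.27 in wild type (log2 -1.31, SE 0.08, adjusted p = 8.46e-05). Variegated plants stood at 6.90, 6.91 and 6.88, and the stunted level was lower than the variegated one (log2 -1.05, adjusted p = 0.00105). WLIM1 followed the same order, with 6.68, 6.35 and 6.53 in stunted plants, 7.58, 7.43 and 7.24 in variegated plants, and 7.81, 7.63 and 7.76 in wild type. It fell by 1.21 against wild type (adjusted p = 0.000534) and was lower than in variegated plants (log2 -0.90, adjusted p = 0.00831). WLIM2b, brighter than both, fell by 0.42 (adjusted p = 0.015), a call that was lost without stunted 2 (adjusted p = 0.0522). IQD30, a calmodulin-binding protein of the IQD family, fell by 0.80 (adjusted p = 0.0162), lost without wild type 1 or 3 or stunted 2 (up to 0.0599). A further pair outside the lists was chosen after its values were seen: SPR1, which keeps cortical microtubules and cell growth straight, fell by 0.89 (adjusted p = 0.000974) and was lower than in variegated plants (log2 -0.66, adjusted p = 0.0143), and TON1B, needed for the preprophase band, fell by 0.51 (adjusted p = 0.00934).

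Of 19 expansins, proteins that loosen bonds between wall polymers, 4 fell and 0 rose. This was 21.1%, against 8.06% of all genes and 12.8% of genes with a symbol. EXPB3, with a 5.35-fold difference, is among the largest falls of the comparison and differed from variegated plants too (log2 -1.23, adjusted p = 0.0332). EXPA4 had log2 levels of 6.15, 5.54 and 5.36 in stunted plants, against 6.93, 7.22 and 6.88 in wild type (log2 -1.33, SE 0.22, adjusted p = 0.0063). EXPA16 had 5.24, 4.93 and 4.60 in stunted plants, against 6.15, 5.98 and 6.11 in wild type (log2 -1.16, SE 0.14, adjusted p = 0.00157). EXLB1, an expansin-like protein, fell by 1.09 (adjusted p = 0.0107). All 4 were without overlap between the groups, which is no further support for genes that passed on the same arrays. Many of the remaining expansins are dim. The mean log2 level over the 19 genes was 3.79, 3.71 and 3.57 in stunted plants, against 4.06, 4.17 and 4.0 in wild type.

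Endoglucanases of the GH9 family cut beta-1,4-glucans, and 4 of 15 measured members fell and 0 rose (26.7%, against 8.06% of all genes). GH9B8 had log2 levels of 3.30, 2.98 and 3.03 in stunted plants, 3.96, 3.87 and 3.96 in variegated plants, and 5.22, 4.97 and 5.06 in wild type. The 3 groups were apart from each other, with stunted plants 3.95-fold below wild type (log2 -1.98, SE 0.10, adjusted p = 3.38e-05) and below variegated plants (log2 -0.83, adjusted p = 0.00742). The stunted levels of GH9B8 lay below the array medians of 3.37 to 3.43, so the fold is a rough value. GH9B13 fell by 1.16 against wild type (adjusted p = 0.00113) and was lower than in variegated plants (log2 -0.68, adjusted p = 0.0365), and GH9B7 fell by 0.83 (adjusted p = 0.00958). GH9C2 fell by 1.30, with a wider spread of 6.94, 5.87 and 5.45 in stunted plants against 7.53, 7.68 and 6.96 in wild type (adjusted p = 0.0408). Its call was lost without wild type 1 or 2, any variegated array, or stunted 2 or 3 (adjusted p up to 0.139).

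Of the 26 genes of the cellulose list, which holds the GH9 and CSL families, 6 fell, 1 rose and 19 did not pass. The share that passed was 26.9%, against 8.06% of all genes. CSLC04, a synthase of the xyloglucan backbone, had log2 levels of 5.11, 5.01 and 4.57 in stunted plants, against 5.92, 6.20 and 6.13 in wild type (log2 -1.19, SE 0.15, adjusted p = 0.00179), and it was lower than in variegated plants (log2 -0.88, adjusted p = 0.0244). COB, or COBRA, a membrane-anchored protein that directs cellulose deposition in expanding cells, had 8.46, 8.41 and 7.80 in stunted plants, against 9.03, 9.06 and 9.08 in wild type (log2 -0.83, SE 0.15, adjusted p = 0.0103). CSLD2, a cellulose synthase-like protein of tip-growing cells, rose by 0.72 (adjusted p = 0.0369), but this call was lost without stunted 2 or any of the 6 arrays of the other groups (adjusted p up to 0.115). The other 6 measured CSL genes did not pass. IRX15-L, a xylan synthesis gene chosen after its values were seen, fell by 0.56 (adjusted p = 0.0377, up to 0.123 without wild type 1, 2 or 3, variegated 1, or stunted 2 or 3).

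Xyloglucan endotransglucosylases, which cut and rejoin xyloglucan chains, went both ways. XTH32 had log2 levels of 7.48, 6.75 and 6.48 in stunted plants, against 8.25, 8.11 and 7.89 in wild type (log2 -1.18, SE 0.22, adjusted p = 0.0104). EXGT-A3, a member known from leaf veins, had 8.27, 9.22 and 8.93 in stunted plants, against 7.73, 7.42 and 7.64 in wild type, 2.31-fold higher (log2 1.21, SE 0.21, adjusted p = 0.00725). The other 8 of the 10 members did not pass. The pectin methylesterase PME61 fell by 1.02 (adjusted p = 0.00107) and PMEPCRF by 0.65 (adjusted p = 0.0279, lost without wild type 2 or 3 or stunted 2 or 3, up to 0.091). Of 23 members of the TBL family, which acetylates wall polysaccharides, 2 fell and 0 rose (8.7%, near the 8.06% of all genes). TBL36 had 4.53, 4.49 and 4.90 in stunted plants, against 5.90, 5.78 and 5.73 in wild type (log2 -1.17, SE 0.12, adjusted p = 0.000837). TBL38 fell by 0.43 (adjusted p = 0.0252, lost without wild type 2 or 3 or stunted 2 or 3, up to 0.0959). None of 14 subtilases and SKU5-similar proteins and none of 5 lignin genes passed.

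When the actin signal entered the model as a covariate, 19 of the wall genes fell in place of 25, and COB, GH9B7, EXLB1 and XTH32 had adjusted p-values of 0.0596, 0.0517, 0.057 and 0.0542. Leaving out single arrays gave 18 (without stunted 2) to 31 (without stunted 1) falls and 1 to 4 rises. The count of rises was 1 without wild type 1, wild type 2, variegated 1, variegated 2 or stunted 2, against 3 with all arrays.

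**Figure D2:**
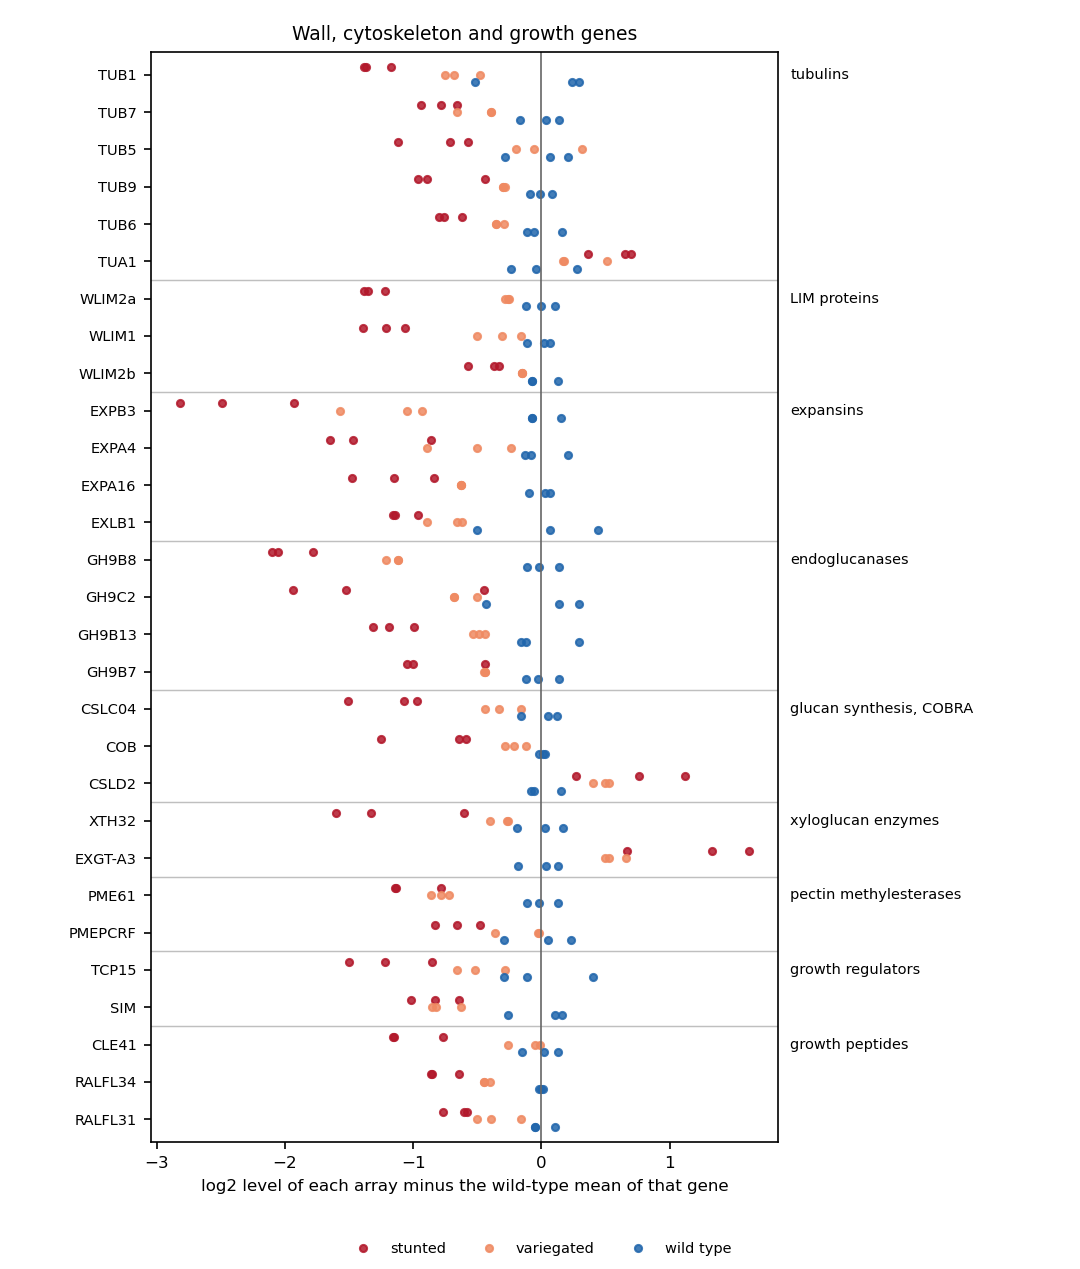
Log2 level of each array minus the wild-type mean of the gene, for wall, cytoskeleton and growth genes that passed the test, with 3 points each for stunted (red), variegated (orange) and wild type (blue). Most red points lie left of the blue ones, by up to 2.42 on average for EXPB3, and TUA1, CSLD2 and EXGT-A3 lie to the right.

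Of the 69 plastid-encoded genes, 9 rose and 0 fell (13%, against 3.86% of all genes), 59 had changes above 0, and the median change was 0.28. These genes are bright, with a median log2 level of 8.65. Among all genes with a mean level above 7, 11.4% rose and 12.0% fell, so the share that rose was close to that of bright genes. The mean level of the 69 genes was 7.82, 8.29 and 8.69 in stunted plants, against 8.05, 7.87 and 7.58 in wild type. Stunted 1 lay below wild type 1 and 2, so the groups overlapped. The 9 called genes encode parts of the plastid's own expression machinery and a few other products: the ribosomal proteins rpl16, rpl20, rps2 and rps4, the polymerase subunits rpoC1 and rpoC2, the protease subunit clpP, the ATP synthase subunit atpA, and ycf3, which helps to assemble photosystem I. None of 20 photosystem genes and none of 10 ndh genes, which encode the plastid NADH dehydrogenase-like complex, passed, although all 10 ndh changes were above 0.

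The plastid-encoded ribosomal protein rpl20 had log2 levels of 5.36, 5.19 and 5.64 in stunted plants, 4.77, 5.47 and 5.60 in variegated plants, and 3.69, 3.80 and 3.90 in wild type. It was 3.03-fold higher in stunted plants than in wild type (log2 1.6, SE 0.20, adjusted p = 0.00203), with no overlap, and did not differ from variegated plants by the test (log2 0.11, adjusted p = 0.866). The polymerase subunit rpoC2 had 5.60, 5.68 and 6.14 in stunted plants, against 4.86, 4.97 and 4.65 in wild type (log2 0.98, SE 0.15, adjusted p = 0.00407). These were the 2 of the 9 that passed whichever array was left out. The largest change was that of rpl16, with 8.11, 8.75 and 9.60 in stunted plants against 7.51, 7.04 and 6.82 in wild type (log2 1.70, SE 0.42, adjusted p = 0.0368). The stunted arrays of rpl16 spread over more than a log2 unit, and all lay above wild type. The others had changes from 1.0 (atpA) to 1.34 (rps2), with adjusted p-values from 0.0153 to 0.0427.

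These calls leaned on single arrays. The number of plastid-encoded genes that rose was 2 without wild type 2, 3 without wild type 3, 3 without stunted 3, 5 without stunted 2 and 17 without stunted 1, and 2 fell without stunted 1. It was 2 with the actin covariate and 3 with the 25S ribosomal RNA covariate. Stunted 1 had the lowest 25S signal of its group (4.50) and the lowest actin 3′ minus 5′ signal (1.42), and their part in the plastid result was not tested further. Plastid transcripts mostly lack long poly(A) tails, so their signal on a 3′ array depends on how the RNA was primed, a step that was not examined here.

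Nuclear genes for plastid protein folding and RNA processing that passed were higher, but most did not pass. Of 9 genes for plastid import, chaperones and proteases 3 rose, 0 fell and 6 did not pass, with a median change of 0.06. The share was 33.3% at a median log2 level of 6.38, against 17.8% of all genes with levels from 4 to 7. Cpn60beta2, a subunit of the chaperonin that folds rubisco and other stromal proteins, had log2 levels of 9.24, 9.38 and 9.21 in stunted plants, 8.86, 9.08 and 8.71 in variegated plants, and 7.66, 7.99 and 7.93 in wild type. Both RNAi groups were above wild type, stunted plants by 2.67-fold (log2 1.42, SE 0.12, adjusted p = 0.000338), and the stunted and variegated levels did not differ by the test (log2 0.39, adjusted p = 0.137). Cpn60beta4, a minor chaperonin subunit that serves the NADH dehydrogenase-like complex, had 6.60, 6.77 and 6.95 in stunted plants, 6.26, 6.09 and 6.20 in variegated plants, and 6.03, 6.03 and 5.89 in wild type. It rose by 0.79 against wild type (adjusted p = 0.0018) and was 0.59 higher than in variegated plants (adjusted p = 0.0237). SPPA, a light-induced thylakoid protease, rose by 0.86 (adjusted p = 0.0134, lost without wild type 1 or 2 or stunted 2, up to 0.0575).

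Among 18 genes for plastid transcript processing and photosystem assembly, 4 rose and 0 fell, with a median of 0.19. The share was 22.2% at a median log2 level of 4.6, against 17.8% of all genes with levels from 4 to 7. OTP84, an RNA editing factor of the pentatricopeptide repeat family, had log2 levels of 4.0, 3.96 and 4.22 in stunted plants, against 3.51, 3.59 and 3.55 in wild type (log2 0.51, SE 0.08, adjusted p = 0.00437). The editing factors CRR21 and CRR22 rose by 0.98 and 0.48 (adjusted p = 0.0463 and 0.0301), and LPA1, an assembly factor of photosystem II, by 0.68 (adjusted p = 0.0314). OTP84 passed in each omission, while CRR21 and CRR22 lost their calls without stunted 2 or 3 or any of the 6 arrays of the other groups (up to 0.15 and 0.098) and LPA1 without wild type 1 or 2, variegated 2, or stunted 2 or 3 (up to 0.109). The remaining 14 genes had changes that did not pass, 10 of them above 0.

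Other nuclear genes of organelle gene expression were picked by name after their values were seen, from genes that had passed, so their direction is a description. RAP, which matures the 16S ribosomal RNA of the plastid, had log2 levels of 7.03, 7.52 and 7.72 in stunted plants, 6.65, 6.74 and 6.78 in variegated plants, and 5.91, 6.33 and 6.20 in wild type (stunted minus wild type 1.28, SE 0.17, adjusted p = 0.00246). RH39, an RNA helicase of 23S ribosomal RNA processing, rose by 0.79 (adjusted p = 0.0114), and ATAB2, a translation activator of photosystem subunits, by 0.37 (adjusted p = 0.008). FUG1, the plastid translation initiation factor, rose by 0.70 (adjusted p = 0.0376), MRL7-L, a regulator of plastid gene expression, by 0.59 (adjusted p = 0.0199), and SPP, the stromal processing peptidase that removes transit peptides, by 0.80 (adjusted p = 0.0211). PDF1A and PDF1B, peptide deformylases that remove the formyl group from the first residue of organelle-made proteins, rose by 0.49 and 0.52 (adjusted p = 0.0344 and 0.0179). RAP, RH39 and ATAB2 passed whichever array was left out. The calls of SPP and MRL7-L were lost without wild type 1 or stunted 2 or 3, MRL7-L also without wild type 3 (up to 0.0847 and 0.0679). Those of FUG1, PDF1A and PDF1B were lost without wild type 2 or stunted 2 or 3 (up to 0.135, 0.124 and 0.0605), FUG1 also without wild type 1 or 3 or variegated 2 or 3, PDF1A without wild type 1 or variegated 1, and PDF1B without wild type 3.

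Of 9 chlorophyll and haem genes 3 rose, 1 fell and 5 did not pass. This was 44.4% of a short list with a median log2 level of 7.62, against 23.4% of all genes above 7. HEMA2, a glutamyl-tRNA reductase, had log2 levels of 5.45, 5.05 and 5.28 in stunted plants, against 4.71, 4.78 and 4.76 in wild type (log2 0.51, SE 0.10, adjusted p = 0.0136). HEMB1, an aminolevulinate dehydratase, had 8.87, 8.79 and 8.72 in stunted plants, against 8.42, 8.43 and 8.31 in wild type (log2 0.41, SE 0.07, adjusted p = 0.00882). GSA1, the aminotransferase between them, rose by 0.47 (adjusted p = 0.0232, lost without wild type 1 or stunted 2, up to 0.0879). For these 3 enzymes the stunted and variegated levels differed by -0.04 to 0.11, which did not pass. PORB, the light-dependent protochlorophyllide reductase, had 9.39, 9.34 and 9.54 in stunted plants, 9.93, 10.06 and 10.20 in variegated plants, and 9.97, 10.29 and 10.48 in wild type. It fell by 0.83 against wild type (adjusted p = 0.0052), and it was lower than in variegated plants as well (log2 -0.64, adjusted p = 0.0474). LYC, a lycopene cyclase and the one carotenoid gene measured, rose by 0.50 (adjusted p = 0.037), lost without any wild-type array, variegated 1 or 2, or stunted 2 or 3 (up to 0.131).

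Of 11 photosystem, antenna and ATP synthase genes, LHCB4.3 was the 1 that passed. This antenna protein of photosystem II had log2 levels of 6.96, 7.59 and 7.54 in stunted plants, against 8.08, 8.20 and 8.44 in wild type (log2 -0.88, SE 0.17, adjusted p = 0.0126). The 4 Calvin cycle and photorespiration genes (RCA, PRK, SBPASE and HPR) and the 8 genes of plastid division and thylakoid shape had none. DPE1, which breaks down maltotriose from starch, fell by 0.63 (adjusted p = 0.0474, lost without wild type 1 or 3, any variegated array, or stunted 1 or 2, up to 0.142). NTRC, a thioredoxin reductase of plastids, rose by 0.63 (adjusted p = 0.0206, lost without wild type 1 or 2 or stunted 2, up to 0.0693).

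Further plastid genes chosen after their values were seen also went both ways. EX1, or EXECUTER1, which relays the singlet oxygen signal from plastids to the nucleus, had log2 levels of 6.36, 6.37 and 6.72 in stunted plants, against 5.37, 5.65 and 5.63 in wild type (log2 0.94, SE 0.14, adjusted p = 0.00472). NDC1, a plastoglobule NAD(P)H dehydrogenase, rose by 0.76 (adjusted p = 0.0113) and CYTC6A, a cytochrome c-like protein of the thylakoid lumen, by 0.62 (adjusted p = 0.0109). CHL, the chloroplast lipocalin, fell by 0.43 (adjusted p = 0.00492) and was lower than in variegated plants (log2 -0.35, adjusted p = 0.0395). CaS, a thylakoid calcium sensor, and TAAC, a thylakoid ATP/ADP carrier, fell by 0.29 and 1.1 (adjusted p = 0.0204 and 0.0223). Both of the last calls were lost without wild type 2 or 3 or stunted 2 (up to 0.0611 and 0.0884), and that of TAAC without stunted 3. Over all plastid lists the number of genes that rose was 21, against 8 without wild type 2, 10 without stunted 2, 12 without stunted 3, 13 without wild type 1 or 3, and 35 without stunted 1. With the actin covariate 7 rose and 6 fell, and with the 25S covariate 11 rose and 5 fell, against 21 and 3 without a covariate. NDC1 and CYTC6A had adjusted p-values of 0.0649 and 0.0512 with the actin covariate.

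**Figure D3:**
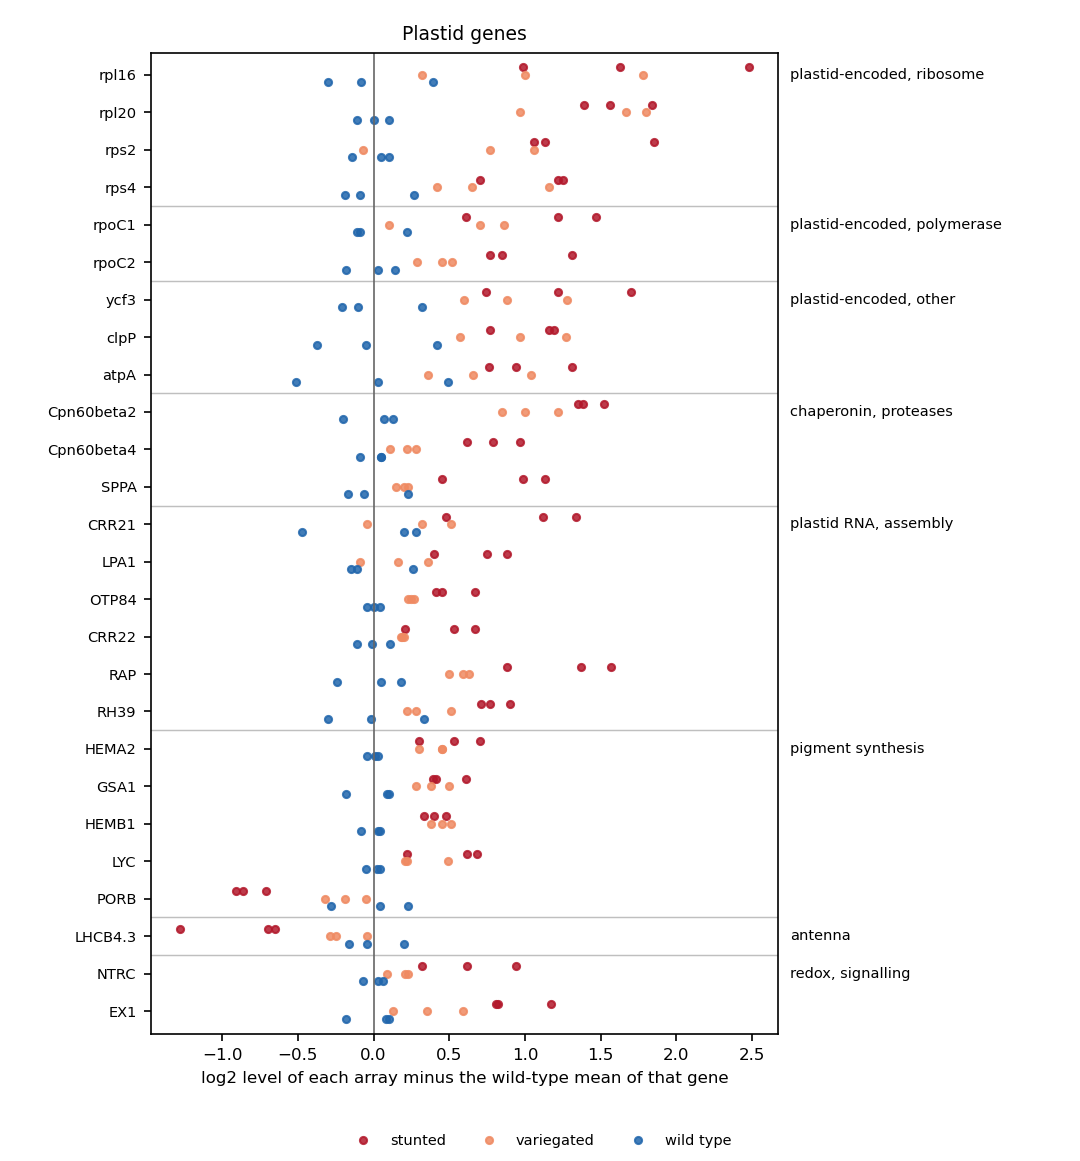
Log2 level of each array minus the wild-type mean of the gene, for 26 genes of plastid functions chosen from those that passed the test, with 3 points each for stunted (red), variegated (orange) and wild type (blue). Among the genes drawn, red points lie right of the blue ones except for PORB and LHCB4.3; DPE1, which also fell, is not drawn, and orange points overlap red ones for rpl20, HEMB1 and GSA1.

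Stress genes that passed went in both directions, within some lists and between lists. Among 13 antioxidant enzymes 2 rose and 1 fell. Their share of 23.1% was near the 23.4% of all genes above a level of 7, and the median level of the list was 7.12. CCS, the copper chaperone that activates copper/zinc superoxide dismutase, had log2 levels of 7.97, 8.34 and 8.43 in stunted plants, 7.81, 7.65 and 7.51 in variegated plants, and 6.77, 6.65 and 6.81 in wild type. It was 2.84-fold higher in stunted plants than in wild type (log2 1.5, SE 0.13, adjusted p = 0.00038). Methionine sulfoxide reductases, which repair oxidised methionine, split: MSRB6 had 8.39, 8.56 and 8.62 in stunted plants, against 7.50, 7.62 and 7.29 in wild type (log2 1.05, SE 0.13, adjusted p = 0.00179). MSRB5, its neighbour by locus number, had 6.08, 6.18 and 5.98 in stunted plants, against 6.89, 6.99 and 7.25 in wild type (log2 -0.97, SE 0.11, adjusted p = 0.00117). MSRB6 was 0.91 higher than in variegated plants (adjusted p = 0.0142), while MSRB5 did not differ from them by the test (log2 -0.17, adjusted p = 0.508). The plastid ascorbate peroxidases SAPX and TAPX and both glutathione reductases did not pass.

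Genes of ascorbate synthesis and carbonyl detoxification were picked after their values were seen. GME, an epimerase of the ascorbate route, had log2 levels of 8.92, 9.09 and 9.28 in stunted plants, against 8.54, 8.36 and 8.33 in wild type (log2 0.68, SE 0.10, adjusted p = 0.00355). GLDH, which makes ascorbate in mitochondria in the last step, also rose by 0.68 (adjusted p = 0.0122). PMM, the phosphomannomutase of the same route, fell by 0.47 (adjusted p = 0.0107, 0.066 with the actin covariate), so the route did not move as a whole. AER and AOR, reductases of reactive carbonyls, rose by 1.0 and 0.60 (adjusted p = 0.00294 and 0.0247), and the metallothionein MT1C by 0.85 (adjusted p = 0.0024). The call of AOR was lost without wild type 1 or 2 or stunted 2 or 3 (up to 0.0757), and GLDH had 0.0509 when the 2 groups were fitted alone.

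Of 14 glutathione transferases 1 rose and 2 fell (21.4%, against 8.06% of all genes), while 12 had changes below 0. GSTU16 had log2 levels of 5.32, 5.48 and 5.57 in stunted plants, against 4.39, 4.82 and 4.67 in wild type (log2 0.84, SE 0.11, adjusted p = 0.00273). GSTU20, the much brighter member, had 10.07, 9.86 and 9.32 in stunted plants, against 10.60, 10.83 and 10.95 in wild type (log2 -1.05, SE 0.19, adjusted p = 0.00935, 0.0548 with the actin covariate). GSTL3 fell by 0.39 (adjusted p = 0.0139). GSTU16 was the single member that also stood above variegated plants (log2 0.55, adjusted p = 0.0485).

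Among 11 genes of mitochondrial dysfunction and alternative respiration, 2 rose, 0 fell, and 10 had changes above 0, with a median of 0.16 in stunted plants and 0.62 in variegated plants, each against wild type. AT2G21640, a marker of mitochondrial dysfunction, had log2 levels of 5.67, 5.21 and 5.41 in stunted plants, 6.84, 6.63 and 6.01 in variegated plants, and 3.73, 4.09 and 4.01 in wild type. It rose by 1.48 in stunted plants (adjusted p = 0.00303) and was nonetheless lower there than in variegated plants (log2 -1.07, adjusted p = 0.0408). AT5G43450 rose by 1.26 (adjusted p = 0.0021) and did not differ from variegated plants by the test (log2 -0.18, adjusted p = 0.677). The alternative NAD(P)H dehydrogenases NDB1 to NDB4 did not pass.

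Dehydration and cold genes gave 2 rises and 3 falls among 16 genes, with 12 changes below 0 and a median of -0.44. DI21, a drought-induced gene, had log2 levels of 4.89, 4.85 and 5.02 in stunted plants, 6.23, 6.21 and 6.12 in variegated plants, and 5.90, 5.74 and 5.93 in wild type. Stunted plants were below both other groups, wild type (log2 -0.94, SE 0.08, adjusted p = 0.00038) and variegated plants (log2 -1.27, adjusted p = 0.000306). AT2G44060, which encodes the late embryogenesis abundant protein LEA26, fell by 0.74 (adjusted p = 0.00281), and COR15A, which protects plastid membranes in the cold, fell by 0.95 (adjusted p = 0.0444). LEA4-5 rose by 0.78 (adjusted p = 0.0277) and COR27, a cold-regulated clock component, by 0.55 (adjusted p = 0.0066). The call of COR15A was lost without stunted 2 or 3 or any of the 6 arrays of the other groups (up to 0.13), and that of LEA4-5 without wild type 2 or 3 or stunted 2 (up to 0.0984). Without stunted 1 the list had 7 falls. ROF2 (AT5G48570), a heat-induced immunophilin and the 1 called gene of 4 heat shock genes, rose by 0.92 (adjusted p = 0.0118, 0.0554 with the actin covariate).

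Among defence genes the 2 thionins went opposite ways. THI2.2 had log2 levels of 5.32, 4.96 and 5.31 in stunted plants, against 3.89, 3.69 and 3.65 in wild type (log2 1.45, SE 0.12, adjusted p = 0.000369). THI2.1 had 3.38, 2.81 and 3.36 in stunted plants, against 4.99, 4.57 and 4.69 in wild type (log2 -1.57, SE 0.24, adjusted p = 0.00426). Thionins are small antimicrobial peptides, and the family is close in sequence. The defensin-like peptides LCR68 and LCR69 fell by 0.79 and 1.09 (adjusted p = 0.00142 and 0.02), and the call of LCR69 was lost without wild type 2 or 3 or stunted 2 or 3 (up to 0.0798). The defensins PDF1.2 and PDF1.4 did not pass. JMT, which methylates jasmonate, had 3.44, 3.02 and 3.14 in stunted plants, against 4.0, 5.15 and 4.44 in wild type (log2 -1.33, SE 0.25, adjusted p = 0.0109, 0.0535 with the actin covariate). Its stunted level did not differ from that of variegated plants by the test (log2 -0.06, adjusted p = 0.949). The stunted levels of JMT lay near or below the array medians of 3.37 to 3.43. The other 3 jasmonate genes did not pass. BSMT1, a methyltransferase of benzoate and salicylate chosen after its values were seen, fell by 1.22 (adjusted p = 0.0426), lost without wild type 1 or 2, any variegated array, or stunted 2 or 3 (up to 0.148).

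Among 31 genes of the glucosinolate and myrosinase list 4 rose and 3 fell (22.6%, against 8.06% of all genes). PYK10, the beta-glucosidase of endoplasmic reticulum bodies, had log2 levels of 5.51, 5.55 and 5.98 in stunted plants, 3.78, 3.95 and 4.09 in variegated plants, and 4.45, 4.09 and 4.01 in wild type. It rose by 1.5 against wild type (SE 0.15, adjusted p = 0.000875) and stood 1.74 above variegated plants (adjusted p = 0.0018). PYK10 is also a root gene, and EXPA7, the other root marker measured, stood at 2.86, 2.89 and 2.77 in stunted plants, against 2.78, 2.99 and 2.71 in wild type. The jacalin-related lectins, a family that binds PYK10 and its relatives, split: JAL22, JAL33 and JAL34 rose by 0.64, 0.55 and 0.46 (adjusted p = 0.0205, 0.0398 and 0.0414). JAL23 had 5.58, 5.28 and 4.29 in stunted plants, against 6.85, 7.21 and 7.31 in wild type (log2 -2.07, SE 0.35, adjusted p = 0.00716). The calls of JAL33 and JAL34 were lost without stunted 3 or any of the 6 arrays of the other groups (up to 0.111 and 0.11), JAL33 also without stunted 1 and JAL34 without stunted 2, and that of JAL22 without wild type 1 or 3 or stunted 3 (up to 0.0708). Of 20 beta-glucosidases of the BGLU series, BGLU47 fell by 0.41 (adjusted p = 0.018, lost without wild type 3 or stunted 2, up to 0.0566). BCAT4, which starts chain elongation of methionine-derived glucosinolates, fell by 0.68 (adjusted p = 0.0269, lost without any wild-type array or stunted 2 or 3, up to 0.0788).

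WRKY22, a factor of early defence signalling, had log2 levels of 3.66, 3.80 and 3.72 in stunted plants, against 2.98, 3.09 and 3.22 in wild type (log2 0.63, SE 0.08, adjusted p = 0.00257). WRKY6, known from senescence and phosphate responses, rose by 1.03 (adjusted p = 0.0138, lost without wild type 2 or stunted 2, up to 0.0577). The senescence markers SAG101 and WRKY53 had changes of -0.02 and 0.01 that did not pass. ATG8H, an autophagy protein, was the 1 of 10 measured ATG8 and related genes with a call beside WRKY6 in its list, at 4.69, 4.67 and 4.74 in stunted plants, 4.0, 4.13 and 4.10 in variegated plants, and 4.13, 3.91 and 3.94 in wild type. It rose by 0.71 against wild type (adjusted p = 0.00113) and was 0.62 above variegated plants (adjusted p = 0.00879).

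In the carboxypeptidase and ubiquitin lists the genes that passed were lower. They made up 17.2% and 14.7% of these lists, against 8.06% of all genes and 12.8% of genes with a symbol. The ubiquitin list as a whole did not lean down, with a median of 0.02 and 20 of 34 changes above 0. Of 29 serine carboxypeptidase-like genes 5 fell, among them scpl35 with 5.16, 4.80 and 4.46 in stunted plants against 5.82, 6.11 and 6.32 in wild type (log2 -1.28, SE 0.18, adjusted p = 0.00303). It was also lower than in variegated plants (log2 -1.09, adjusted p = 0.0237). Of 34 ubiquitin ligase and protease genes 5 fell, and UBC22, a ubiquitin-conjugating enzyme, had the smallest p, with 6.28, 6.10 and 6.30 in stunted plants against 6.86, 6.82 and 6.83 in wild type (log2 -0.61, SE 0.07, adjusted p = 0.00137). The number of falls in the ubiquitin list was 1 to 3 without any wild-type array or stunted 2 or 3, and 1 with the actin or the 25S covariate. In the carboxypeptidase list it was 3 without wild type 2 or 3, variegated 3 or stunted 2. None of 21 bZIP factors, 8 glutamate receptor-like channels and 8 flavonoid genes passed. Over all stress lists 25 genes fell, against 14 without wild type 2, 15 without stunted 2 and 32 without stunted 1, and 16 with the actin covariate.

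**Figure D4:**
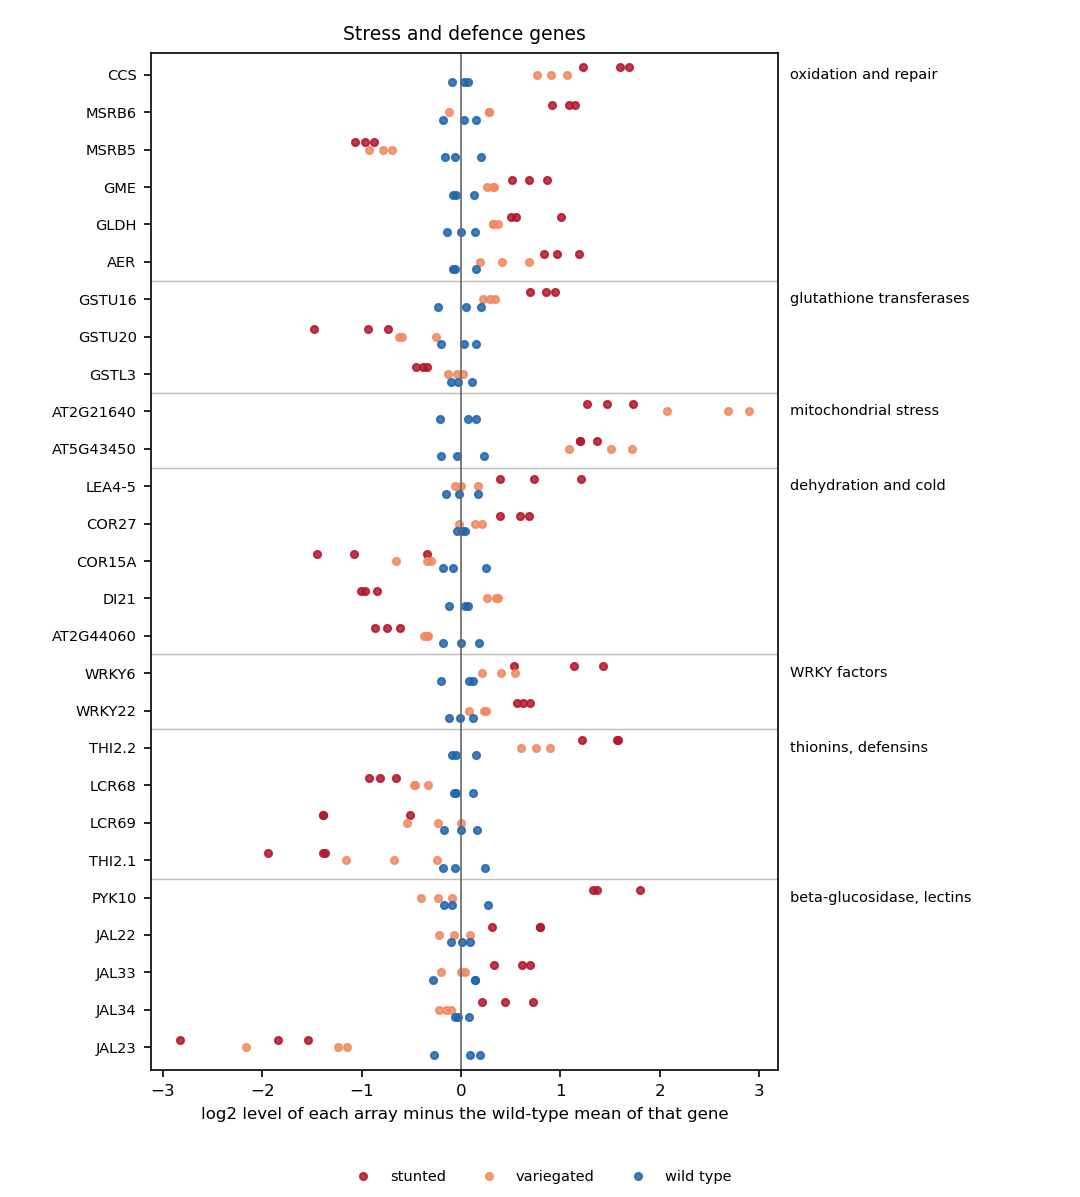
Log2 level of each array minus the wild-type mean of the gene, for stress and defence genes that passed the test, with 3 points each for stunted (red), variegated (orange) and wild type (blue). Families such as the methionine sulfoxide reductases, the thionins and the jacalin-related lectins hold members on both sides of 0, and orange points lie right of red ones for AT2G21640.

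Among the 30 largest rises and 30 largest falls, several genes belong to functions outside the lists. NRPA2, the second largest subunit of RNA polymerase I, which transcribes ribosomal RNA genes, had log2 levels of 6.14, 5.98 and 5.94 in stunted plants, 5.01, 5.38 and 4.86 in variegated plants, and 4.48, 4.62 and 4.52 in wild type. It rose by 1.48 (SE 0.13, adjusted p = 0.000387) and stood 0.94 above variegated plants (adjusted p = 0.012). Other genes of ribosome production, chosen after their values were seen, had smaller rises. RBL, or REBELOTE, rose by 0.77 (adjusted p = 0.00575), and the nucleolar proteins YAO and IMP4 rose by 0.43 and 0.47 (adjusted p = 0.0311 and 0.0398). NRPC2, the matching subunit of RNA polymerase III, rose by 0.71 (adjusted p = 0.0445). The calls of the last 3 were lost without wild type 2 or 3 or stunted 2, among other arrays (up to 0.0861, 0.121 and 0.142), while NRPA2 and RBL passed in each omission.

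SWEET2, a sugar transporter of the vacuole membrane, had log2 levels of 6.20, 6.18 and 5.55 in stunted plants, 4.55, 4.32 and 4.80 in variegated plants, and 4.38, 4.31 and 3.84 in wild type. It was 3.48-fold higher in stunted plants than in wild type (log2 1.80, SE 0.21, adjusted p = 0.00142) and 1.42 above variegated plants on the log2 scale (adjusted p = 0.016). The other 20 genes of its list of 21 SWEET and cation exchanger genes did not pass. TMT1, which loads sugars into the vacuole, had 5.14, 5.36 and 4.68 in stunted plants, against 5.96, 6.29 and 6.23 in wild type (log2 -1.1, SE 0.18, adjusted p = 0.00561), and was chosen after its values were seen. UGT87A2, a glycosyltransferase with a role in flowering time, rose by 1.79 (adjusted p = 0.00161).

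Tetraspanins, membrane proteins that organise protein clusters, were also chosen after their values were seen. TET8 had log2 levels of 9.05, 8.43 and 7.75 in stunted plants, against 7.03, 7.14 and 7.25 in wild type (log2 1.27, SE 0.26, adjusted p = 0.0162). TET7 fell by 0.79 (adjusted p = 0.00399) and was lower than in variegated plants (log2 -0.81, adjusted p = 0.0154), and TET2 fell by 0.48 (adjusted p = 0.0492). The call of TET8 was lost without wild type 1 or 2 or stunted 2 (up to 0.0592), and that of TET2 without wild type 2 or 3, any variegated array, or stunted 2 or 3 (up to 0.142). Among hormone-linked genes chosen in the same way, BRH1, a RING protein that responds to brassinosteroid, fell by 1.11 (adjusted p = 0.00501) and XERICO, a RING protein that raises abscisic acid, by 0.81 (adjusted p = 0.00305). HYH, the HY5 homologue of light signalling, rose by 0.66 (adjusted p = 0.0156, lost without wild type 3 or stunted 3, up to 0.0536).

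Several of the largest changes were in genes known mostly by locus code. AT1G09500, a stress-responsive oxidoreductase, had the largest rise, with log2 levels of 6.96, 7.64 and 7.74 in stunted plants, 4.28, 5.26 and 5.79 in variegated plants, and 3.36, 3.30 and 3.87 in wild type (stunted minus wild type 3.94, adjusted p = 0.000532). AT3G02480, a late embryogenesis abundant protein, rose by 2.86 (adjusted p = 0.0269), lost without wild type 1 or 2 or stunted 1 or 3 (up to 0.0938). Among the largest falls, AT2G14900, a gibberellin-regulated family member, had 5.15, 4.48 and 5.01 in stunted plants, against 7.16, 7.03 and 6.99 in wild type (log2 -2.18, adjusted p = 0.000304). AT1G62500 and AT5G05960 of the lipid-transfer family fell by 2.19 and 2.05 (adjusted p = 0.00205 and 0.00143). The thaumatin-like ATLP-1 and DRT100, a leucine-rich repeat protein, fell by 1.79 and 1.44 (adjusted p = 0.00257 and 0.00525), and AT2G33850, listed by code alone, fell by 3.33, the largest fall. AT2G33850 was also low in variegated plants, at 2.83, 3.01 and 2.71, and stunted plants did not differ from these by the test (log2 -0.15, adjusted p = 0.808). Its levels in both RNAi groups lay below the array medians of 3.37 to 3.43, so the size of the fall is a rough value. AT2G14900 and AT1G62500 were lower in stunted than in variegated plants as well (log2 -1.48 and -1.37, adjusted p = 0.00685 and 0.0481).

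Stunted and variegated plants were both msh1 RNAi transgenics, and the difference between these groups was tested directly. It passed for 396 of 22746 probe sets (1.74%) and for 189 of 13356 genes (1.42%). Among the 1076 genes called against wild type, 167 (15.5%) also differed from variegated plants, 69 higher and 98 lower in stunted plants; both contrasts share the stunted arrays, so these are not independent counts. Of the called wall genes 6 differed, all lower in stunted plants than in variegated ones (EXPB3, GH9B8, GH9B13, CSLC04, WLIM1 and WLIM2a). Of the called stress genes 9 were higher and 5 lower, and of the 24 called plastid genes Cpn60beta4 was higher and PORB lower. Some of the largest changes were alike in both RNAi groups and others were not. AT1G43590 had 5.08, 5.05 and 5.51 in stunted plants, 5.30, 5.06 and 5.51 in variegated plants, and 2.96, 2.73 and 2.86 in wild type. AT4G20860, a stress-responsive oxidoreductase, had 4.85, 4.66 and 4.54 in stunted plants, 2.80, 3.20 and 3.20 in variegated plants, and 2.82, 2.99 and 3.14 in wild type. The first gene did not differ between stunted and variegated plants by the test (log2 -0.08, adjusted p = 0.875), and the second was 1.62 higher in stunted plants (adjusted p = 0.00151). The count of 396 probe sets became 48, 117 and 184 without variegated 1, 2 and 3, 85 without stunted 2, 212 without wild type 2, and 1404 without stunted 1.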

How the data were processed

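The values are log2 levels as the authors deposited them. RMA and affy are named, without versions, per the submitters' processing notes. The 9 arrays had near-equal medians, and a change shared by most transcripts would be lost in such values. After 64 control probe sets were set aside, 22746 were fitted with limma 3.58.1 in R 4.3.3, with 1 mean for each of the 3 groups over all 9 arrays. An adjusted p under 0.05 (Benjamini-Hochberg over all probe sets, two-sided) passed, and log2 changes carry limma's moderated SE. Arrays carry no depth, and their number limits the precision. Names came from the platform's old annotation: 13513 probe sets (59.4%) had 1 gene, 503 several and 8730 none listed. The brightest probe set represented each of 13356 genes, of which 13286 were found in a reference table of assembly TAIR10.1. Named genes were the 30 largest rises and falls without overlap between the groups, with the 8 largest each way kept short, and up to 5 called members of each list. The members and lists were chosen with earlier results of these data known, and genes that a symbol matched in error were removed from them. On simulated arrays with independent normal noise and 200 changed probe sets, 50.7% of changes of 0.5 (log2) were recovered, 98.5% of 1 and 100% of 2, with 10 false calls among 176. Differences between whole arrays were not simulated, so these shares may not hold for the real arrays. The alternatives were a block for the replicate number, the 2 groups alone, an intensity trend, robust moderation, 2 normalizations, a filter on the dimmest 30%, actin and 25S covariates, and leaving out each array. P-values measure only the spread between these samples.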

Additional observations from a re-analysis of the deposited data

Results flagged for a closer look

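The levels of 396 probe sets differed between stunted and variegated msh1 RNAi plants, so for these the change against wild type was not alike in the RNAi groups. The difference itself was tested, as a contrast of the limma model over 22746 probe sets with an adjusted p under 0.05.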

How the results depend on the processing

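The replicate numbers were not treated as pairs in the main fit. Same-numbered stunted and wild-type arrays deviated together at r = 0.09, 0.11 and 0.23. Pairs of different numbers had r from -0.20 to 0.10, and only stunted 1 with wild type 2 (0.10) lay above 0 among them. Whether the replicate number marks a shared batch was not tested. With the replicate number as a block 2889 probe sets passed against wild type, in place of 2197, and 940 between stunted and variegated plants, in place of 396. Fitting the 2 groups alone gave 1321 (661 rose and 660 fell), and 133 for stunted against variegated plants. With the actin covariate 1412 passed (639 rose), of which 1106 were among the 2197. The cause was not tested. Leaving out 1 array gave 1241 to 2955 probe sets, 646 to 1509 that rose, 595 to 1446 that fell, and 48 to 1404 for stunted against variegated plants; the lowest 3 counts against wild type came without stunted 2, while 1435 passed without wild type 2 (670 fell) and 724 rose without wild type 1. Quantile normalization gave 2276, median centring 2304, the intensity trend 2139, robust moderation 2155, the filter on dim probe sets 2443 and the 25S covariate 1631. Of 184 named genes with a call, 119 passed in all 9 omissions. Of 3311 values of named results under an alternative, 0 changed direction and 476 no longer passed. The losses were uneven: 64 calls were lost with the actin covariate, 51 with the 2 groups alone and 41 with the 25S covariate. The other fits over all arrays lost 0 to 7, and the omissions of single arrays 8 (stunted 1) to 55 (stunted 2). Promoter motifs could not be described, since no sequence was used here.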
